A study of Mus musculus with 24 samples.

Results

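The genes described here are 9 of the 14427 genes in the counts table, and they cover the insulin-like growth factor 1 (IGF1) axis as these astrocyte lines expressed it. They are the ligand *Igf1*, its receptor *Igf1r*, the 6 binding proteins *Igfbp2* to *Igfbp7*, and *Pappa*, which encodes the protease PAPP-A. They were chosen by name, with earlier results of these data known. They were followed through all 8 lines, and each mutant line was compared with the p53 knockout (KO) line of the same culture. All 9 genes passed the filter on low counts.

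IGF1 is a secreted growth factor that binds the receptor tyrosine kinase IGF1R, and the activated receptor recruits insulin receptor substrates and signals through PI3K, AKT and mTOR to promote growth and survival. In extracellular fluid most IGF is held by IGF binding proteins (IGFBPs), which can keep it from the receptor or prolong its life, and PAPP-A cuts IGFBP4 and so frees the growth factor. Astrocytes are known to secrete both IGF1 and IGFBPs, and IGFBP2 is a well-known product of malignant glia.

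The data are read counts from RNA-seq of 4 male and 4 female lines, each with 3 replicate libraries, 24 in all. The study asked whether missense mutants of p53 alter gene expression relative to loss of p53, and whether they do so differently in cells from males and females. All 8 lines began as primary cortical astrocytes of C57BL/6 pups at postnatal day 1, with 1 male and 1 female culture made from pooled pups that carried 1 floxed and 1 deleted *Trp53* allele. The labels give passages 10 to 15. The 6 mutant lines were transduced with an MSCV retrovirus that expresses *Trp53* R172H, Y202C or Y217C together with eGFP and were sorted for eGFP. All 8 lines, the KO lines included, then received a lentivirus with Cre recombinase and a puromycin resistance gene and were selected with puromycin, so none kept a wild-type *Trp53* allele. The KO lines did not receive the retrovirus or the sort, and each mutant line is a single transduced population, so a mutation cannot be told apart from what else separates that line from its KO. The study describes its in vitro replicates as separate thaws and platings, so errors and p-values here measure how far thaws of 1 line differ, with no animal-to-animal variation in them.

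Total counts ranged from 52787288 to 136503809 per library. *Trp53*, the targeted gene, had a mean of 50.9 and 48.9 CPM (counts scaled to library size) in the male and female KO lines and of 593 to 3709 CPM in the 6 mutant lines, so it separated the libraries labelled KO from those labelled mutant, while its level does not show which mutation or culture a library holds. All 10 astrocyte markers of a hand-written list were in the table, but *Gfap*, the classical astrocyte filament gene, was at 0.257 CPM or less in 7 lines and at 6.93 CPM in male Y217C, and *Aqp4* was at 8.06 CPM or less. Of the other genes of that list, *Sox9*, *Gja1* and *Glul* were present in every line, with line means of 80.0 to 183, 81.0 to 221 and 25.4 to 65.8 CPM. *S100b*, *Slc1a2* and *Aldoc* were at 1.28, 7.82 and 5.77 CPM or less. *Slc1a3* ran from 3.14 to 281 CPM and *Aldh1l1* from 0.0546 to 56.6 CPM. *Col1a1*, a collagen gene typical of fibroblast-like cells, was at 3361 CPM in male Y202C and reached 21776 CPM in female R172H, and *Cx3cr1*, *P2ry12* and 5 other genes of a list of 10 microglial markers had no row. In bulk RNA, fewer cells of a type and less RNA per cell cannot be told apart.

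The 9 genes varied far more between lines than most genes did. Over the 8 line means, the range from the lowest to the highest level had a median of 2.95 on the log2 scale for the 9 genes and of 1.03 for all genes. Since the 9 genes were chosen with earlier results of these data known, this contrast describes them and is not a test. *Igfbp3* had the widest range of the 9, 1992-fold, followed by *Igfbp2* with 75.4-fold, *Igfbp5* with 29.5-fold and *Igfbp6* with 11.6-fold. *Igf1r* had the narrowest, 2.53-fold. The largest value of an IGFBP was in male Y217C for *Igfbp3* and *Igfbp5*, and in female R172H for *Igfbp2*, *Igfbp4*, *Igfbp6* and *Igfbp7*.

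The sequence just before the RefSeq transcription start is shown for 3 genes. *Igfbp3* was taken because its range was the widest, and *Igfbp4* and *Igfbp6* because they were the pair of the 9 genes with the highest Pearson correlation of line means. Each run is the 250 bases upstream of the start in RefSeq, on GRCm38.p6, written 5′ to 3′ on the strand of the gene. Capitals mark TATAAA, the core of a TATA box, or GGGCGG, the core of an SP1 site, on either strand.
*Igfbp3* (chr11:7213924-7214173, minus strand): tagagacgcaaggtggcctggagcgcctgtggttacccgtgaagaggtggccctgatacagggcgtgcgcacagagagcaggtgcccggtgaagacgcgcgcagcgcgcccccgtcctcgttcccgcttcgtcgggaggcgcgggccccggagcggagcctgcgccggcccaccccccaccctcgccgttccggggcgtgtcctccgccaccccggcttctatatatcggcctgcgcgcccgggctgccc
*Igfbp4* (chr11:99040994-99041243, plus strand): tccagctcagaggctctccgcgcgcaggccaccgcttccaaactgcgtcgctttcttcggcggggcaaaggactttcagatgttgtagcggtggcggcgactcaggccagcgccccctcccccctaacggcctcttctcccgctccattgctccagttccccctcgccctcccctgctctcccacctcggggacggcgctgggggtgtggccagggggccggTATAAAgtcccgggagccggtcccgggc
*Igfbp6* (chr15:102143936-102144185, plus strand): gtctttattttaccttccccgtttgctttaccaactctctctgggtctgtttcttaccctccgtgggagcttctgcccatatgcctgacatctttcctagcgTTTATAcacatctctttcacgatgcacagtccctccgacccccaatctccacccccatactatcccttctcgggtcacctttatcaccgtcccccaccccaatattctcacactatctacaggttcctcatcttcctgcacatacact
The *Igfbp4* window held TATAAA 23 bases before the start. The *Igfbp6* window held it on the other strand, 143 bases before its RefSeq start. That start lies upstream of the GENCODE M21 start of *Igfbp6* (102144362), and the bases just after it were not found in a GENCODE M21 transcript of the gene. The same held for the *Igf1r* window and the first *Igfbp2* window. Over all 32851 windows of the same length, TATAAA was found in 12.4%, GGGCGG in 32.7%, and the p53 half-site in 7.13%. The *Igfbp3* window held none of the 3 motifs, but 73.2% of its bases were G or C and it had 32 CpG, against medians of 52.4% and 6 CpG over all windows. Of the 9 genes, 8 had a window in RefSeq and *Pappa* is named only, and none of the 8 held the half-site. A match is only a match of letters, and its absence from these windows says nothing about p53 or SP1 elsewhere. Variants of TATAAA were not searched for, so a window without it may still hold a TATA box.

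**Figure D1:**
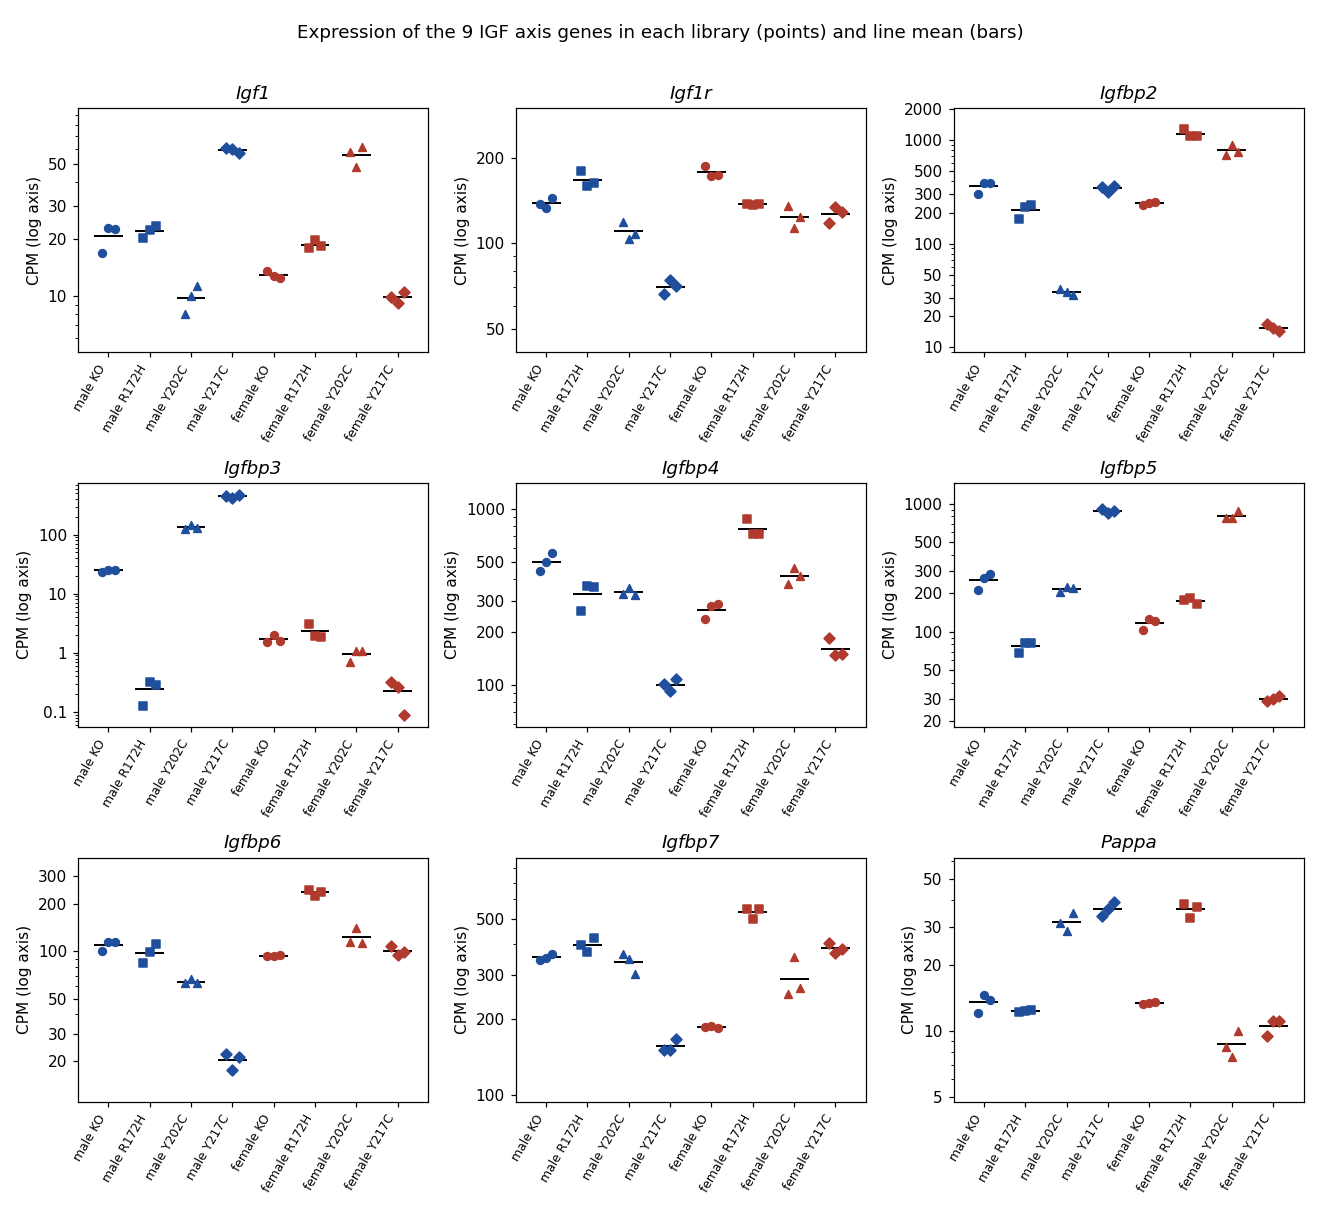
Level of each of the 9 genes in CPM, on a log axis, in the 3 libraries of every line (points) with the line mean (bars), male lines in blue and female lines in red. *Igfbp3* runs from below 1 CPM in male R172H and female Y217C to 412 CPM and above in male Y217C, whereas all values of *Igf1r* lie between 66.1 and 187 CPM.

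Positions below are those of GENCODE M21 on GRCm38. The ligand *Igf1* lies on chromosome 10 (87858265 to 87937042, plus strand). A value is given in CPM for replicates 1, 2 and 3 in turn, and a log2 fold change with its standard error. In the male culture *Igf1* was at 16.9, 22.9 and 22.7 CPM in the KO replicates, 20.3, 22.4 and 23.3 in R172H, 8.08, 9.97 and 11.3 in Y202C and 60.3, 59.6 and 56.9 in Y217C. All Y217C libraries were above, and all Y202C libraries below, every KO library, whereas the R172H libraries overlapped with KO. In the female culture the KO values were 13.6, 12.7 and 12.4, R172H had 18.0, 19.8 and 18.4, Y202C 57.7, 48.2 and 61.4 and Y217C 9.93, 9.22 and 10.5 CPM. Here Y202C was the line set apart on the high side, and Y217C was below KO in every library. The log2 fold changes against KO were 1.50 ± 0.11 for male Y217C and -1.10 ± 0.11 for male Y202C, with adjusted p = 1.12e-11 and 4.95e-09. In females they were 2.11 ± 0.11 for Y202C, 0.53 ± 0.11 for R172H and -0.39 ± 0.11 for Y217C, the last with adjusted p = 0.00556. Male R172H had 0.08 ± 0.11 and did not pass the test (adjusted p = 0.608). The highest lines, male Y217C and female Y202C, overlapped each other, as did the lowest, female Y217C and male Y202C.

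*Igf1r*, the receptor gene (chromosome 7, 67952827 to 68233668, plus strand), moved least and mostly downward. Its values were 138, 133 and 145 CPM in male KO and 187, 173 and 174 CPM in female KO. In male Y217C they were 66.1, 74.1 and 70.9 CPM, the lowest of any line. Male R172H, at 179, 159 and 162 CPM, was the single mutant line in which the receptor was higher than in KO. Every other mutant line was lower than its KO, with log2 fold changes from -0.98 ± 0.068 in male Y217C to -0.33 ± 0.067 in male Y202C, and all 6 comparisons passed the test. The 3 female mutants lay close together, at -0.38 ± 0.067 for R172H, -0.52 ± 0.067 for Y202C and -0.49 ± 0.067 for Y217C, and the libraries of female Y202C and Y217C overlapped. The fold was 1.97 in male Y217C and between 1.20 and 1.44 in the other 5 lines.

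*Igfbp2* and *Igfbp5* are neighbors on chromosome 1 (72824503 to 72852474, plus strand, and 72857932 to 72874884, minus strand), with 5457 bases between their 3′ ends. IGFBP2 is a major IGFBP of brain and of cerebrospinal fluid. *Igfbp2* was at 300.4, 385 and 390.4 CPM in male KO and fell to 36.6, 34.2 and 31.6 CPM in male Y202C, a 10.5-fold difference. Female KO had 237, 248 and 252 CPM and female Y217C 16.6, 15.2 and 14.3 CPM, a 16.0-fold difference. In contrast, female R172H rose to 1279, 1101 and 1093 CPM and female Y202C to 727, 909 and 772 CPM. The groups in each of these 4 comparisons did not overlap. Male R172H was also below KO without overlap, at 173, 228 and 238 CPM, and male Y217C, at 354, 319 and 365 CPM, overlapped with it. The log2 fold changes were -0.75 ± 0.11, -3.39 ± 0.12 and -0.05 ± 0.11 for R172H, Y202C and Y217C in males, and 2.24 ± 0.11, 1.71 ± 0.11 and -4.00 ± 0.12 in females. Of these 6 comparisons, male Y217C alone did not pass the test (adjusted p = 0.678). For R172H and for Y202C, *Igfbp2* thus lay below KO in the male culture and above it in the female culture.

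*Igfbp5* encodes a binding protein found in the extracellular matrix. It was at 212, 263 and 281 CPM in male KO and at 67.8, 81.9 and 81.1 CPM in male R172H, 206, 226 and 219.9 in Y202C and 913, 852 and 883 in Y217C. The R172H libraries were all below and the Y217C libraries all above KO, while Y202C overlapped with it. In females, KO had 103, 126 and 122 CPM, R172H 179, 184 and 164, Y202C 781, 774 and 881 and Y217C 28.8, 29.8 and 31.2 CPM, with no overlap of any mutant with KO. *Igfbp5* rose in male Y217C (log2 fold change 1.81 ± 0.091), female Y202C (2.80 ± 0.094) and female R172H (0.59 ± 0.089), and fell in male R172H (-1.71 ± 0.091) and female Y217C (-1.96 ± 0.094). Male Y202C passed the test narrowly, with -0.21 ± 0.088 and adjusted p = 0.0329. That call was lost without KO replicate 2 (log2 fold change -0.18, adjusted p = 0.108) or 3 (-0.13, 0.221), and without Y202C replicate 1 (-0.18, 0.115) or 3 (-0.22, 0.0521). The neighbors *Igfbp2* and *Igfbp5* did not share one pattern, since male Y217C was 3.50-fold above KO for *Igfbp5* and within the spread of KO for *Igfbp2*.

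*Igfbp3*, on chromosome 11 (7206086 to 7213923, minus strand), encodes the main IGF carrier of blood serum and is known as a target of wild-type p53. In the male lines it was at 23.7, 25.5 and 25.1 CPM in KO, 0.126, 0.320 and 0.280 in R172H, 124, 147 and 132 in Y202C and 457, 412 and 471 in Y217C. No group of libraries overlapped with another, and the levels of KO and R172H were 106-fold apart. In the female lines it was low throughout, at 1.50, 1.99 and 1.56 CPM in KO, 3.12, 1.93 and 1.87 in R172H, 0.709, 1.07 and 1.09 in Y202C and 0.317, 0.267 and 0.0886 in Y217C. The read counts behind the lowest lines were 13, 25 and 22 in male R172H and 27, 21 and 6 in female Y217C. The log2 fold changes in males were -6.73 ± 0.21, 2.44 ± 0.13 and 4.17 ± 0.13 for R172H, Y202C and Y217C, the last with adjusted p = 2.00e-18. In females they were 0.45 ± 0.18, -0.78 ± 0.23 and -2.83 ± 0.30, each with the sign opposite to the male value. Female R172H passed the test with adjusted p = 0.0309, although its libraries overlapped with those of KO, and the call was lost with limma (0.104), with a fit of the 2 lines alone (0.0703), and without female R172H replicate 1 (log2 fold change 0.19, adjusted p = 0.344) or female KO replicate 1 (0.38, 0.117) or 3 (0.40, 0.0955).

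*Igfbp4*, also on chromosome 11 (99041244 to 99054392, plus strand), encodes the classic substrate of PAPP-A. Its KO levels were 444, 501 and 566 CPM in males and 236, 281 and 288 CPM in females. It was lowest in male Y217C, with 101, 92.2 and 108 CPM, and highest in female R172H, with 882, 720.4 and 723 CPM. In neither of these lines did a library overlap with its KO. All 6 comparisons passed the test, and the gene fell in the 3 male mutants and in female Y217C, with log2 fold changes of -0.61 ± 0.12, -0.58 ± 0.12, -2.33 ± 0.13 and -0.74 ± 0.12, and rose in female R172H (1.53 ± 0.12) and female Y202C (0.64 ± 0.12).

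*Igfbp6* (chromosome 15, 102144362 to 102149511, plus strand), whose product is known for its preference for IGF2 over IGF1, followed a course like that of *Igfbp4*. Male KO had 100.1, 115 and 115 CPM and male Y217C 22.3, 17.8 and 21.2 CPM. Female KO had 92.8, 93.7 and 94.5 CPM and female R172H 246, 226 and 238 CPM. These were the lowest and the highest line of the 8, and neither overlapped with its KO. The log2 fold changes were -2.43 ± 0.097 in male Y217C, -0.78 ± 0.091 in male Y202C, 1.34 ± 0.091 in female R172H and 0.39 ± 0.091 in female Y202C, all past the test. Male R172H (-0.16 ± 0.09, adjusted p = 0.160) and female Y217C (0.11 ± 0.091, adjusted p = 0.324) did not pass it. The first of these did pass with limma (adjusted p = 0.0295) and without male R172H replicate 3 (log2 fold change -0.26, adjusted p = 0.0355).

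*Igfbp7*, on chromosome 5 (77349240 to 77408041, minus strand), encodes a secreted matrix protein that binds IGFs weakly. Male KO had 343, 352 and 363 CPM, male R172H 396, 371 and 422, male Y202C 365, 348 and 303 and male Y217C 151, 150.2 and 167 CPM. Y217C alone of the 3 male mutants passed the test, with a log2 fold change of -1.18 ± 0.09. In females, KO had 187, 188 and 184 CPM, R172H had 550.1, 500.4 and 548, Y202C 252, 352 and 265 and Y217C 404, 368 and 381 CPM. Every female mutant library was above every KO library, with log2 fold changes of 1.52 ± 0.09, 0.64 ± 0.089 and 1.05 ± 0.089. *Igfbp7* was thus the sole binding protein gene that rose in female Y217C. Male R172H, with 0.17 ± 0.088 and adjusted p = 0.131, passed with limma (0.0361), with a fit of the 2 lines alone (0.0337) and without female Y202C replicate 2 (0.0313). Of its 1209 exon bases, 85 are shared with exons of *Polr2b* on the other strand, and the strand of counting is not given in the sources used here, so reads of the 2 genes over those bases cannot be told apart.

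*Pappa*, the protease gene (chromosome 4, 65124174 to 65357509, plus strand), was at 12.1, 14.6 and 13.9 CPM in male KO and 13.4, 13.4 and 13.6 CPM in female KO. It rose in male Y202C, with 31.1, 28.6 and 34.7 CPM, in male Y217C, with 33.5, 36.2 and 39.0 CPM, and in female R172H, with 38.4, 33.0 and 37.2 CPM. These 3 lines overlapped one another and lay far above the others. The log2 fold changes were 1.22 ± 0.093, 1.42 ± 0.093 and 1.43 ± 0.093, or 2.32-fold, 2.67-fold and 2.69-fold. Female Y202C, at 8.47, 7.59 and 10.0 CPM, and female Y217C, at 9.49, 11.1 and 11.1 CPM, fell below KO, with log2 fold changes of -0.63 ± 0.097 and -0.35 ± 0.095. Male R172H, at 12.3, 12.3 and 12.5 CPM, did not pass the test (adjusted p = 0.277). In male Y217C the protease was higher and its substrate gene *Igfbp4* lower than in KO, whereas in female R172H both were higher.

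**Figure D2:**
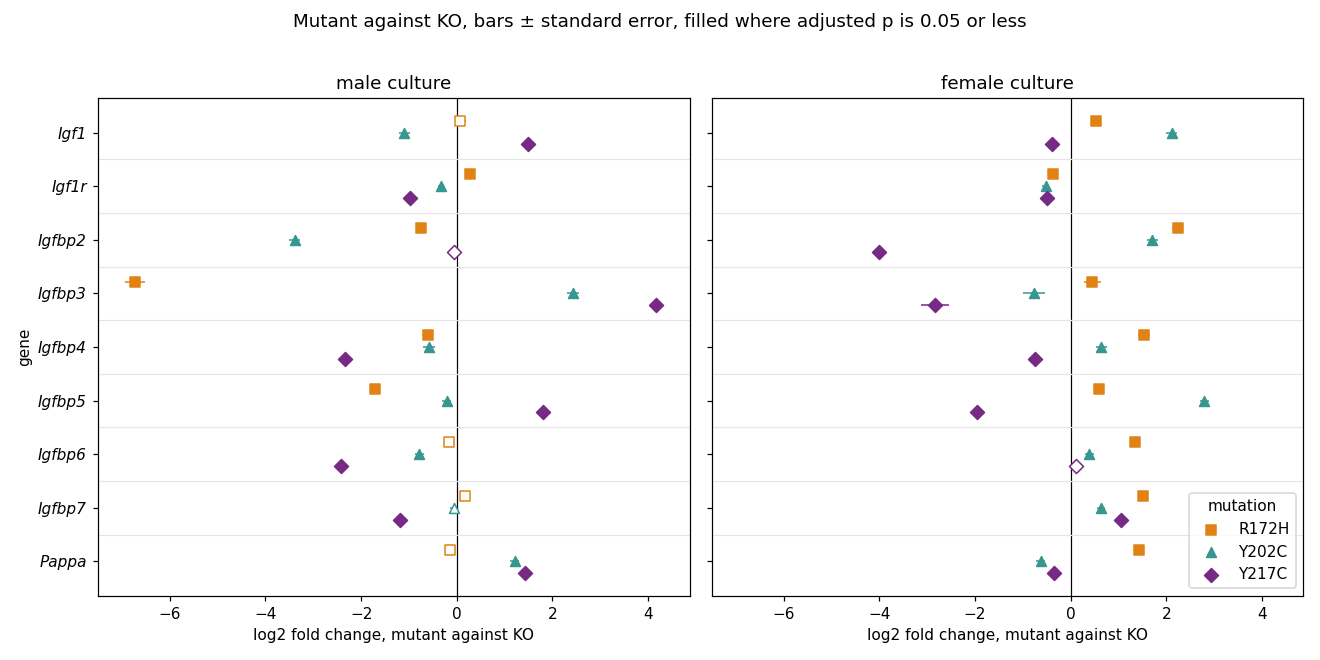
Log2 fold change of each gene in R172H (squares), Y202C (triangles) and Y217C (diamonds) against the KO line of the male (left) and female (right) culture, with bars of ± 1 standard error and filled symbols where the adjusted p is 0.05 or less. Most symbols of one mutation lie on opposite sides of 0 in the 2 panels, for example *Igfbp2* in Y202C at -3.39 and 1.71 and *Igfbp3* in Y217C at 4.17 and -2.83.

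Counted by line, 5 to 9 of the 9 genes passed the test in each comparison. In male R172H, 1 rose and 4 fell, while 40.7% of all genes tested passed, 20.2% higher and 20.5% lower. In male Y202C, 2 rose and 6 fell, against 73.0% of all genes (37.6% higher and 35.4% lower). In male Y217C, 4 rose and 4 fell, against 70.5% (34.9% and 35.6%). In female R172H, 8 rose and 1 fell, against 69.7% (34.4% and 35.3%). In female Y202C, 6 rose and 3 fell, against 68.6% (34.3% in each direction). In female Y217C, 1 rose and 7 fell, against 56.7% (28.0% and 28.7%). Since most genes passed in 5 of the 6 comparisons, the number of calls alone does not set these genes apart. The 9 genes were chosen with earlier results of these data known, so the medians that follow describe them and are not a test. Their changes were larger at the median, with median absolute log2 fold changes over the 9 genes of 0.27, 0.78 and 1.50 in male R172H, Y202C and Y217C and of 1.34, 0.64 and 0.74 in the female lines, against 0.19, 0.46, 0.40, 0.39, 0.38 and 0.28 over all genes in the same order. The signed median ran from -0.49 in female Y217C to 1.34 in female R172H, where all 6 IGFBP genes rose. The call of *Igfbp3* in female R172H was lost in several alternative fits. None of the 9 genes moved in one direction in all 6 comparisons. The 3 comparisons of a culture share its KO libraries.

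The KO lines, which carried no mutant, also differed from each other. Male KO was above female KO for 6 of the 9 genes and below it for *Igf1r*, while 31.1% of all genes differed, 17.2% being higher and 13.8% lower in male KO. *Igfbp3* was 14.9-fold higher in male KO (log2 fold change 3.89 ± 0.16), *Igfbp5* 2.16-fold (1.11 ± 0.09), *Igfbp7* 1.89-fold (0.92 ± 0.089), *Igfbp4* 1.88-fold (0.91 ± 0.12), *Igf1* 1.62-fold (0.69 ± 0.11) and *Igfbp2* 1.46-fold (0.55 ± 0.11). *Igf1r* was lower in male KO by a log2 fold change of -0.36 ± 0.067. *Pappa* had 0.01 ± 0.093 and *Igfbp6* 0.23 ± 0.09, and neither passed (adjusted p = 0.957 and 0.0566). *Igfbp6* did pass with limma, with DESeq2, with upper-quartile scaling, with a stricter filter and with a fit of the 2 lines alone. It also passed without male KO replicate 1, male R172H replicate 1 or 3, male Y217C replicate 1 or 2, or female Y202C replicate 2 or 3 (adjusted p from 0.0271 to 0.0459). With 1 culture of each sex, sex cannot be told apart from culture.

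For each mutation these genes changed differently in the male and female cultures. The interaction, which is the male minus the female log2 fold change, passed the test for 9 of 9 genes for R172H (58.0% of all genes, 29.7% with the male effect higher and 28.3% lower), 8 of 9 for Y202C (68.0%, or 34.5% and 33.5%) and 9 of 9 for Y217C (54.8%, or 27.5% and 27.4%). Genes that were called in both cultures were often called in opposite directions, 5 of 5 genes for R172H, 7 of 8 for Y202C and 5 of 7 for Y217C. Of all genes called in both cultures, 38.2% for R172H, 43.9% for Y202C and 28.0% for Y217C were called in opposite directions. The counts for the 9 genes include *Igfbp3* in female R172H and *Igfbp5* in male Y202C, whose calls were lost in several alternative fits. For R172H the 5 were *Igf1r*, higher in males and lower in females, and *Igfbp2*, *Igfbp3*, *Igfbp4* and *Igfbp5*, all lower in males and higher in females. For Y217C they were *Igf1*, *Igfbp3*, *Igfbp5* and *Pappa*, higher in males and lower in females, and *Igfbp7*, lower in males and higher in females. For Y202C, *Igfbp3* and *Pappa* were higher in males and lower in females, *Igf1*, *Igfbp2*, *Igfbp4*, *Igfbp5* and *Igfbp6* the reverse, and *Igf1r* was lower in both. The *Igf1r* interaction for Y202C did not pass (0.19 ± 0.095, adjusted p = 0.0789) but did without female Y202C replicate 1 (0.26, adjusted p = 0.0188) or male Y202C replicate 2 (0.23, adjusted p = 0.0433). The level of *Trp53* also differed between the cultures, with means of 2287 CPM in male and 1956 CPM in female R172H, 2324 and 593 CPM in Y202C, and 1215 and 3709 CPM in Y217C. The part of this level in the interactions was not tested.

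To compare levels between binding protein genes, CPM were divided by exon length. Summed over *Igfbp2* to *Igfbp7*, the level was 749 ± 61.2 CPM per kb (SD, n = 3) in male KO and 452 ± 12.6 in female KO. The male mutants had 620 ± 52.4 in R172H, 511 ± 30.2 in Y202C and 647 ± 36.0 in Y217C. Female R172H had 1486 ± 101 and female Y202C 1016 ± 116, while female Y217C, with 458 ± 25.9, was within the spread of its KO. *Igfbp7* had the largest share in 5 lines, from 34.1% ± 1.14 in female KO to 69.4% ± 0.67 in female Y217C. In female R172H and Y202C *Igfbp2* took the largest share, 42.1% ± 1.26 and 42.8% ± 0.20, whereas it made up 1.81% ± 0.09 in female Y217C and 3.61% ± 0.14 in male Y202C. Male Y217C was the most evenly divided, with 28.9% *Igfbp2*, 22.7% *Igfbp5*, 22.0% *Igfbp3* and 19.9% *Igfbp7*, with *Igfbp3* above its level in any other line. In the female lines the summed level of 8 fibroblast and meningeal markers, all of them in the table, was higher in the lines with the higher total, from 35169 to 37470 CPM in female KO to between 53937 and 61977 CPM in female R172H and between 48477 and 54257 CPM in female Y202C. In female Y217C it was 31926 to 33734 CPM, and in male KO, R172H, Y202C and Y217C its lowest and highest values were 39981 and 46589, 43209 and 47211, 17691 and 19839, and 23877 and 25127 CPM. *Pdgfra*, *Dcn* and *Lum*, defining genes of that list, were at 165, 105 and 18.2 CPM in female R172H and at 3.09, 2.20 and 0.14 CPM in female KO. The summed astrocyte markers were at 391 to 416 CPM in female KO, 649.9 to 685 in R172H, 376 to 419.7 in Y202C and 273 to 309 in Y217C. Most of the rise in female R172H was *Slc1a3*, at 18.7 CPM in female KO and 281 CPM in R172H. *Sox9* (113 and 183 CPM) and *Aldh1l1* (0.204 and 14.9 CPM) were also higher, while *Gja1* (221 and 157 CPM) and *Glul* (43.8 and 31.6 CPM) were lower. The 3 of 10 microglial markers in the table, of which *Tmem119* made up most, were at 45.8 to 49.6, 105 to 116 and 75.0 to 90.3 CPM in female KO, R172H and Y202C and reached 105 CPM in Y217C. *Tmem119* rose from 44.6 CPM in female KO to 107 in R172H, 76.6 in Y202C and 96.8 in Y217C. In the same order *Cd68* was at 2.82, 2.03, 2.41 and 2.69 CPM and *Csf1r* at 0.601, 1.12, 2.93 and 0.539 CPM. The other genes of that list had no row. The part of the marked cell types in the IGFBP levels was not tested.

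**Figure D3:**
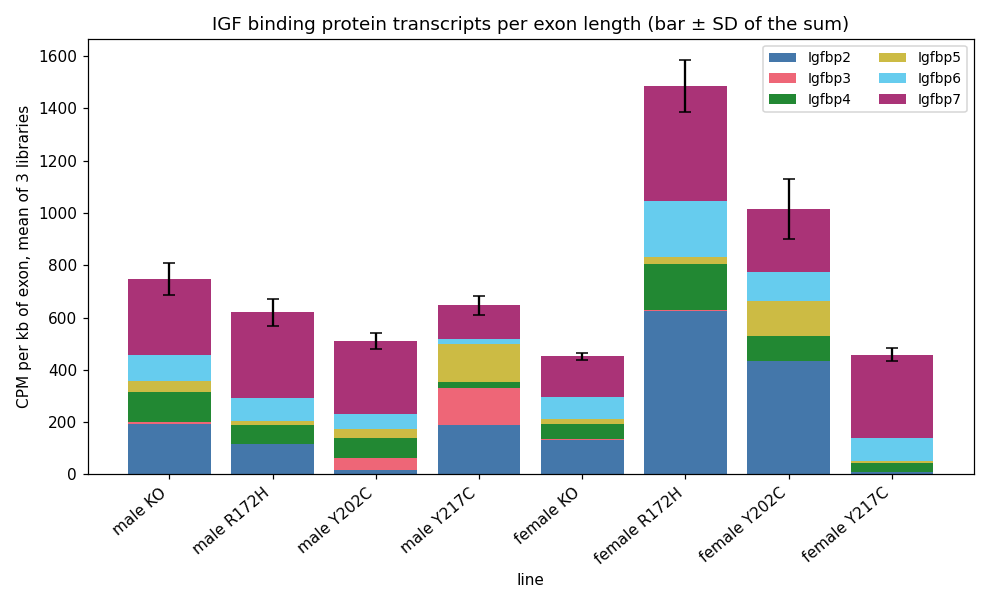
Summed level of the 6 binding protein genes in CPM per kb of exon (mean of 3 libraries, stacked by gene, with a bar of ± SD of the sum) in each line. Female R172H and Y202C stand above all other lines with *Igfbp2* as their largest band, and male Y217C shows a band of *Igfbp3* (22.0%) that is thin or not visible elsewhere.

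Across the 8 line means of log2 CPM, *Igfbp4* and *Igfbp6* had the highest Pearson's r of the 36 pairs of the 9 genes (0.84, n = 8 lines). By Spearman's rho, *Igfbp3* and *Pappa* came first, with 0.86 against 0.76 for *Igfbp4* and *Igfbp6*. By Pearson's r, *Igf1* and *Igfbp5* had 0.81, *Igfbp6* and *Igfbp7* 0.77, and *Igf1r* and *Igfbp3* -0.73. These values describe 8 lines that come from only 2 cultures. Among 11745 genes above 5 CPM in at least 3 libraries, those most like *Igf1* were *Rflna* and *Mtss1* (r = 0.97 for each), and those most like *Igf1r* were *2310022A10Rik* and *Adgra2* (0.99 each). The pairs for the binding proteins were *Sdhc* and *Trmt1l* for *Igfbp2* (0.98 each), *Tmem128* and *Rorb* for *Igfbp3* (0.98 each), *Foxl1* and *Gfpt2* for *Igfbp4* (0.97 and 0.96), *Kmt2e* and *Kifap3* for *Igfbp5* (0.98 and 0.97), *Tmem64* and *Nfkb1* for *Igfbp6* (0.99 and 0.98), and *Rab33b* and *Ntpcr* for *Igfbp7* (0.95 and 0.92). *Faah* and *Gbp9* were most like *Pappa* (0.98 each). Pearson's r takes no account of the size of a change, and some of these genes varied little between lines. Line means of *Tmem128* ran from 17.2 to 23.6 CPM and those of *Kmt2e* from 139 to 204 CPM, whereas those of *Rorb* ran from 0.184 to 12.2 CPM. With 8 points many genes reach such values of r, and from 9 genes for *Igfbp7* to 106 for *Igfbp6* had r above 0.9.

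Of 47 other genes of the IGF and insulin pathway, listed by hand, 42 were in the table. In male R172H, Y202C and Y217C 15, 22 and 18 of these rose and 9, 15 and 16 fell. In female R172H, Y202C and Y217C 18, 13 and 17 rose and 14, 17 and 10 fell. The shares called were 57.1%, 88.1% and 81.0% in the male lines, against 40.7%, 73.0% and 70.5% of all genes, and 76.2%, 71.4% and 64.3% in the female lines, against 69.7%, 68.6% and 56.7%. The medians over the 42 genes lay between -0.03 and 0.30, and those over all genes between -0.01 and 0.01. *Pappa2* and *Grb10* were the 2 genes of the list that passed in all 6 comparisons in a single direction, which 735 of all genes tested (5.09%) did.

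*Grb10*, an adaptor that binds IGF1R and the insulin receptor and restrains their signaling, is an imprinted gene. It was at 521, 547 and 560.4 CPM in male KO and 630.5, 623 and 623 CPM in female KO, and fell in every mutant. In male R172H, Y202C and Y217C its mean was 319, 49.8 and 25.3 CPM, and in female R172H and Y202C it was 159.5 and 78.6 CPM. Female Y217C had 0.211, 0.254 and 0.222 CPM, from 18, 20 and 15 reads, so the gene was nearly undetected there. The log2 fold changes ran from -0.77 ± 0.058 in male R172H to -11.41 ± 0.11 in female Y217C. *Pappa2*, which encodes a second IGFBP protease known to cut IGFBP3 and IGFBP5, rose in every mutant, from 1.28, 1.33 and 1.55 CPM in female KO to 37.1, 37.6 and 47.3 CPM in female Y202C, a log2 fold change of 4.87 ± 0.16. Its other changes ran from 0.84 ± 0.16 in male R172H to 3.15 ± 0.15 in male Y217C.

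Stanniocalcins inhibit the pappalysin proteases, and *Stc1* had the largest change of the protease group. It was at 0.648, 0.769 and 0.628 CPM in female KO and 51.6, 51.4 and 46.4 CPM in female R172H, a log2 fold change of 6.20 ± 0.24, and it also rose in female Y202C (3.18 ± 0.23) and Y217C (0.70 ± 0.27) and fell in all 3 male mutants (-1.22 ± 0.23, -0.81 ± 0.23 and -1.60 ± 0.24). The call in female Y217C was lost without female KO replicate 1 or 3 or female Y217C replicate 2 (adjusted p from 0.0724 to 0.154). *Stc2*, the gene of the other stanniocalcin, had the higher level of the pair in both KO lines, 17.6 and 24.6 CPM or 3.40 and 4.76 CPM per kb of exon, against 0.52 and 0.16 CPM per kb for *Stc1*. It went the other way in 5 lines, falling in female R172H (-0.98 ± 0.06) and Y202C (-1.51 ± 0.063) and rising in male R172H (0.42 ± 0.059), Y202C (1.73 ± 0.06) and Y217C (0.26 ± 0.06). Beside a higher *Pappa*, female R172H thus had more *Stc1* and less *Stc2* than KO, and male Y202C and Y217C less *Stc1* and more *Stc2*. The second ligand, *Igf2*, had a course of its own. Its mean was 6.39 CPM in male KO and 19.5 CPM in female KO, and it fell to 0.549 CPM in male Y217C (-3.55 ± 0.22) and 1.79 CPM in female Y202C (-3.42 ± 0.18), the 2 lines in which *Igf1* was highest, and rose in both R172H lines (1.80 ± 0.16 in males, 1.42 ± 0.15 in females). *Insr*, the insulin receptor gene, rose in male R172H (0.29 ± 0.065) and Y202C (0.78 ± 0.066) and did not pass in the other 4 lines.

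The gene of a distant binding protein relative, *Igfbpl1*, was read almost only in the male culture. It had 29, 24 and 30 reads in male KO, 140, 136 and 88 in Y202C and 453, 306 and 337 in Y217C, but 0 in all male R172H libraries, which makes it at least 7.28-fold lower there than in KO when 3 counts per library are taken as the smallest that could be seen. In the 12 female libraries it had 3 reads in 1 KO library and 0 in the others, so male Y202C exceeded female Y202C at least 32.6-fold, and for Y217C the same bound was 120.0-fold. The line mean of *Igfbpl1* was above 1 CPM only in male Y202C (1.53) and Y217C (4.71). It thus met the filter on low counts through lines in which it was high, so these bounds describe it and are not a test. The order of the male lines was that of *Igfbp3*. *Igf2bp1*, which encodes a protein that binds *Igf2* mRNA, fell in 5 of the 6 mutant lines, most in male Y217C (-3.29 ± 0.11), while male R172H had 0.25 ± 0.092. The male R172H value passed with adjusted p = 0.0339 but not without male KO replicate 2 or 3, male R172H replicate 1 or 3, male Y217C replicate 3 or female Y202C replicate 3 (adjusted p from 0.0512 to 0.179).

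Further down the pathway, the groups differed in how far they changed. In the PI3K and AKT group of 11 genes, from 2 in male R172H (18.2%, against 40.7% of all genes) to 10 in male Y202C (90.9%, against 73.0%) passed the test, and the largest change was that of *Pik3r3*, a regulatory subunit of PI3K, in male Y202C (-1.82 ± 0.062). In the mTOR group of 8 genes, *Rictor*, a subunit of mTOR complex 2, rose in female Y202C (1.49 ± 0.084) and fell in male Y202C (-1.09 ± 0.084) and Y217C (-1.16 ± 0.084). *Foxo1*, a transcription factor that AKT inhibits, was the most changed of the 3 FoxO genes, with 1.14 ± 0.069 in female Y202C, and all 3 FoxO genes rose in the female mutants and in male Y217C. In female Y217C the *Foxo1* call was lost without female KO replicate 1 (adjusted p = 0.0749) or female Y217C replicate 2 (0.0676). The median absolute log2 fold change over the PI3K and AKT genes was 0.09 in male R172H, 0.41 in male Y202C and 0.22 in male Y217C, and 0.29, 0.22 and 0.15 in the female lines, so none exceeded the median over all genes. Those over the mTOR genes, from 0.14 to 0.38, did not exceed it either. The median over the 3 FoxO genes was below that of all genes in male R172H (0.13) and Y202C (0.15) but above it in male Y217C (0.67) and in female R172H (0.62), Y202C (0.63) and Y217C (0.31).

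**Figure D4:**
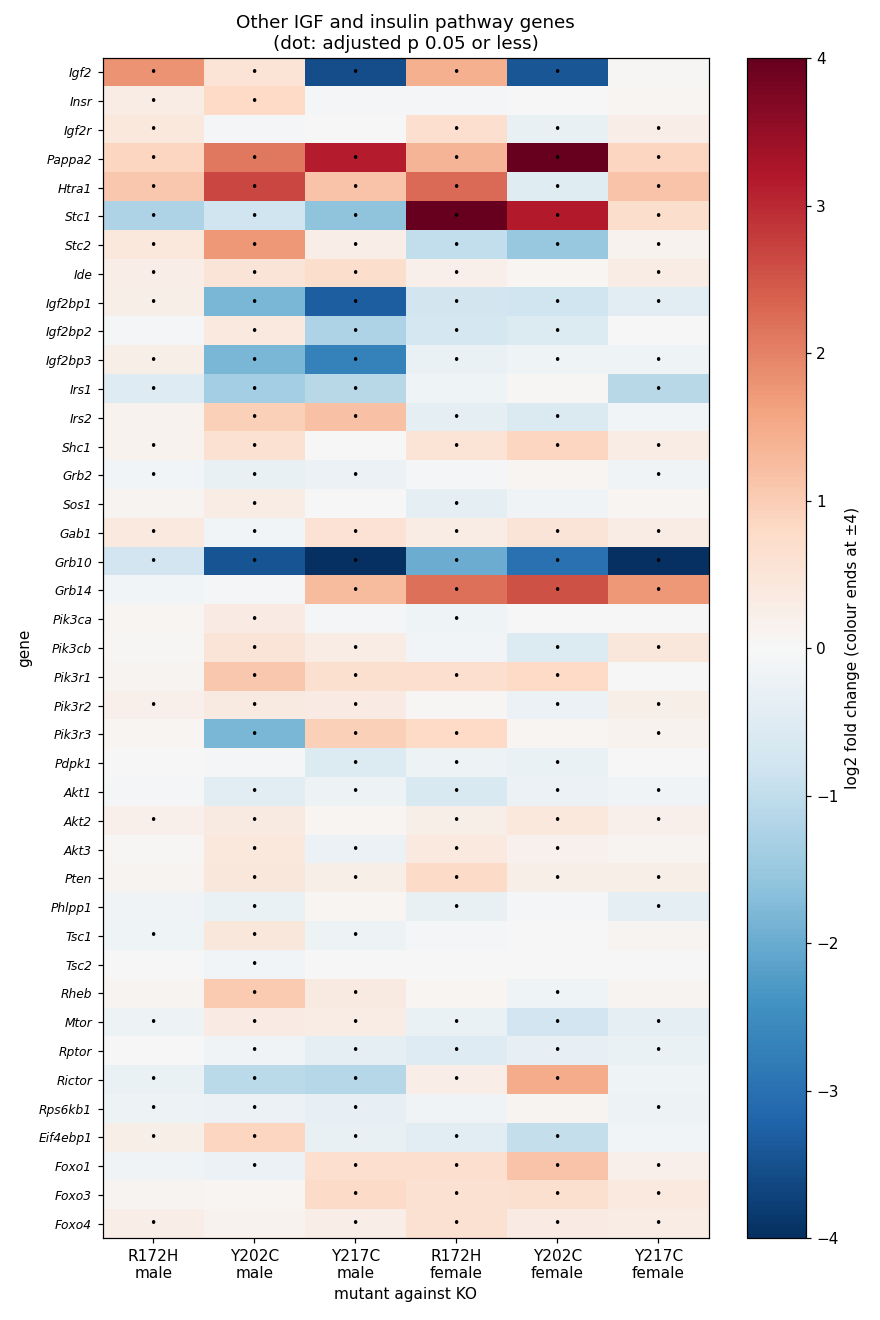
Log2 fold change against KO of 41 other genes of the IGF and insulin pathway (rows) in the 6 mutant lines (columns), in color from blue (lower) to red (higher) with the scale ended at ± 4, and a dot where the adjusted p is 0.05 or less. *Grb10* is blue and *Pappa2* red in all columns, and most rows of PI3K, AKT and mTOR genes are paler than those of *Igf2*, *Htra1* and *Stc1*. *Igfbpl1* is left out because male R172H and the female mutant lines had no reads of it.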

How the data were processed

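RNA-seq read counts of 24 libraries were analyzed, with the labels giving each library's line, sex and replicate. The authors aligned reads with STAR 2.5.1a to an Ensembl mouse assembly and counted uniquely aligned, unambiguous reads with featureCounts, and the deposited values are raw counts for 14427 genes, without normalization. Per the labels, polyA RNA was sequenced, and the strand of counting is not given in the sources used here. GENCODE M21 named 14350 of the gene identifiers.

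The tests used edgeR 4.0.16 under R 4.3.3. All libraries entered one TMM scaling (factors from 0.958 to 1.07) and one quasi-likelihood model, which estimated a mean for each of the 8 lines. A filter of over 1 CPM in 2 or more libraries dropped 0 genes. The paper describes leaving out ribosomal genes and genes not above 1 CPM in enough samples. A gene that had no row may thus be low rather than absent. The threshold was a Benjamini-Hochberg adjusted p of 0.05 over all genes. CPM are counts scaled to the TMM-adjusted library size. Each mutant line was compared with the KO line of its culture, male KO with female KO, and the male with the female effect (interaction). In all pairs of replicates counts differed by more than sampling noise. With a median of 80684346 counts per library, 1 CPM is many reads, and errors cover the spread within a line.

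Alternatives were limma 3.58.1 with voomWithQualityWeights, DESeq2 1.42.0, other scaling, filters and thresholds, fits of the lines compared alone, the replicate number as a block, and leaving out each replicate. Tables and figures were made with Python 3.11.15, pandas 2.3.3 and matplotlib 3.10.9. Upstream sequences came from RefSeq. Named were the 9 genes, *Trp53*, the pathway genes that passed in all 6 comparisons in 1 direction or changed most in their list, the 2 genes most like each of the 9, and defining cell type markers. *Htra1*, *Insr* and *Stc2* were named after their values were seen, as were other examples outside this rule. The genes and lists were chosen with earlier results of these data known.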

Additional observations from a re-analysis of the deposited data

Results flagged for a closer look

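The effect of a mutation differed between the male and the female culture, by the interaction test, for 26 of 27 pairs of a gene and a mutation. Of all genes tested, 58.0%, 68.0% and 54.8% passed the same test for R172H, Y202C and Y217C, so most genes differed in this way. The values below are the male minus the female log2 fold change against KO. For R172H the difference was -0.46 for *Igf1*, 0.64 for *Igf1r*, -2.99 for *Igfbp2*, -7.18 for *Igfbp3* and -2.14 for *Igfbp4*. For the same mutation it was -2.30 for *Igfbp5*, -1.50 for *Igfbp6*, -1.35 for *Igfbp7* and -1.56 for *Pappa*. For Y202C the difference was -3.21 for *Igf1*, -5.10 for *Igfbp2*, 3.21 for *Igfbp3*, -1.23 for *Igfbp4* and -3.01 for *Igfbp5*. For the same mutation it was -1.17 for *Igfbp6*, -0.70 for *Igfbp7* and 1.84 for *Pappa*. For Y217C the difference was 1.89 for *Igf1*, -0.49 for *Igf1r*, 3.95 for *Igfbp2*, 7.00 for *Igfbp3* and -1.58 for *Igfbp4*. For the same mutation it was 3.77 for *Igfbp5*, -2.53 for *Igfbp6*, -2.22 for *Igfbp7* and 1.77 for *Pappa*. The widest differences of the 26 were those of *Igfbp3* in R172H and Y217C, which had opposite signs. With 1 culture of each sex, sex and culture cannot be told apart, and for Y202C and Y217C the level of *Trp53* also differed between the cultures. No group held more than 3 libraries, so single outlying libraries were not looked for.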

How the results depend on the processing

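Of 2970 values of the 9 genes recomputed over 33 settings, 2939 kept their direction and their side of the threshold. Of the rest, 12 lost their call and 19 gained one, and 0 reversed a called direction. The setting without a filter could not differ, since the filter dropped 0 genes, and many leave-outs removed a library outside the lines compared. Part of the unchanged values was thus fixed or nearly fixed in advance. Apart from the threshold of 0.01, the calls that changed are named beside their genes in the report, and the causes were not tested. The number of the 9 genes called stayed within 1 of the reported number without any single library, 5 to 6 in male R172H, 7 to 8 in male Y202C, 8 in male Y217C, 8 to 9 in female R172H, 9 in female Y202C, 8 in female Y217C and 7 to 8 between the KO lines. Of the scalings tried, upper-quartile factors alone moved the median of all genes by over 0.1, by -0.10 in male Y202C and -0.14 in its interaction.

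Requiring an absolute log2 fold change above 0.5 lowered the counts by construction. Only the larger falls are listed here, and smaller ones in other comparisons are not. The 9 genes called fell from 8 to 5 in female Y217C. Among the smaller falls, calls of *Igf1r* in male R172H (0.27) and Y202C (-0.33) and of *Igfbp3* in female R172H (0.45) were lost. The other pathway genes called fell from 24 to 7, 37 to 20 and 34 to 20 in male R172H, Y202C and Y217C, from 32 to 19, 30 to 18 and 27 to 6 in the female lines, from 22 to 5 between the KO lines, and from 26 to 15, 37 to 23 and 24 to 14 for the interactions of R172H, Y202C and Y217C. All genes called fell to 1861, 6531 and 5812 in the male lines, to 5603, 5435 and 3657 in the female lines, to 1730 between the KO lines, and to 5218 and 5054 for the interactions of R172H and Y217C. Between the KO lines limma called 7186 genes, against 4482, and the cause was not tested.

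With the replicate number as a block no call of the 9 genes changed, and 5689 genes were called in male R172H, against 5872. Taken over all lines the numbers did not pair the libraries, since those that shared a number did not deviate together from their line means (mean correlation -0.01 for 84 pairs with a shared number and 0.01 for the 168 other pairs). Within single comparisons, pairs with a shared number ran from -0.17 in female Y217C against KO to 0.24 in male R172H against KO. In the latter the lowest pair was 0.07. Depth limits *Igfbp3* in male R172H and female Y217C, where as few as 6 reads were counted, and *Igfbpl1* in all female lines.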
